A study of Drosophila melanogaster with 6 samples.

Results

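Galt, Galk and UGP, 3 genes of the Leloir pathway of galactose metabolism, were followed on 6 expression arrays of whole Drosophila melanogaster larvae of instar 1. They were taken by name from 11982 genes that had a probe set (a group of short probes read together) naming a single gene, and each had 1 such probe set. Of the 6 arrays, 3 came from larvae labelled wild type and 3 from larvae labelled as Pof mutant, which the study's title gives as Pof D119. Each array is described as a biological replicate made from 200 larvae of both sexes with all tissues mixed. The labels give neither the strain behind each group nor the food of the larvae, and they do not say what the D119 allele removes. All values below are log2 signals, ± gives the SD of a group's 3 arrays, and a difference is mutant-labelled minus wild type with its SE from a limma fit of all probe sets. The 3 genes were selected on their pathway with the differences between the groups on these arrays already known, so those differences are descriptions and carry no p-value.

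The Leloir pathway turns galactose into glucose phosphate and supplies the activated sugars that cells need for glycoproteins, glycolipids and storage carbohydrate. Galactokinase (Galk) phosphorylates galactose. Galactose-1-phosphate uridylyltransferase (Galt) then exchanges that sugar for the glucose of UDP-glucose, which releases glucose-1-phosphate and UDP-galactose. UDP-glucose pyrophosphorylase (UGP) makes UDP-glucose from glucose-1-phosphate and UTP. In flies, larvae that lack Galt are known to tolerate dietary galactose poorly. Galt lies on chromosome arm 2L and Galk and UGP on 3L, so none of them is on chromosome 4, the chromosome that the Pof protein is known to bind.

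The arrays were not equally alike, which bears on Galk. Over all probe sets, Pearson's r of wild type replicate 1 with the rest of its group was 0.979 and 0.98, against 0.998 between replicates 2 and 3 and 0.993 to 0.996 among the mutant-labelled arrays. Median signals of 7 cuticle genes were 11.7 on wild type replicate 1 and 8.88 to 9.98 elsewhere, while 4 muscle markers had medians of 11.7 to 11.8; TwdlE, 1 of the cuticle genes, lay below every array's lower quartile, and 0 of either list were called. Control probe sets at the ends of 3 abundant transcripts were brighter at the 3' end than at the 5' end by a mean of 2.03 on mutant-labelled replicate 2, and by 1.20 to 1.48 on each remaining array. In whole larvae, fewer cells of a type and less RNA per cell cannot be told apart. Fat body markers had medians of 6.37 to 6.66 and gut markers of 11.9 to 12.9. Of these, 0 of 5 and 3 of 7 members rose, with 0 and 1 falling. Among all genes 2.65% were called higher and 1.44% lower, so the gut list lay above those shares. The cause was not tested. Neuron markers had medians of 7.74 on mutant-labelled replicate 2 and 8.64 to 8.84 elsewhere, and hemocyte markers 7.819 to 7.999, with 0 of 4 and 0 of 5 called. Pof, the targeted gene, was higher under the mutant label, at 6.74, 6.83 and 6.82 on the wild type arrays and 8.35, 8.44 and 8.43 on the mutant-labelled arrays (difference 1.61, SE 0.07, limma adjusted p = 9.47e-05). The Pof probe set has the suffix _s, which marks probes that can match several transcripts, also those of other genes. The part of the Pof transcript that this probe set reads is unknown here, so it may not check the labels. Every direction below rests on those labels.

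Galt, the uridylyltransferase, had the largest difference of the 3 genes. Its signal was 8.11, 8.16 and 8.36 on wild type replicates 1, 2 and 3. It was 9.89, 9.86 and 9.82 on the mutant-labelled replicates. All mutant-labelled arrays lay above all wild type arrays, with a gap of 1.46 between the nearest arrays of the groups, whereas the arrays of a group spanned 0.25 (wild type) and 0.07 (mutant-labelled). The means were 8.21 ± 0.13 and 9.86 ± 0.03 (SD, n = 3), a difference of 1.64 (SE 0.08), or 3.13-fold higher under the mutant label. This was the 16th largest positive difference of the 11982 genes, and 43 genes differed by more in either direction. On arm 2L, 3 of 2205 measured genes had a higher difference. In the order of all genes by mean signal, 22.3% were brighter than Galt, well above the dim end of the arrays. Its probe set carries no suffix for shared probes, and RefSeq lists 2 transcripts of the gene. With single arrays left out the difference ranged from 1.59 to 1.72, and it was 1.59 without wild type replicate 1, the array that stood apart.

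**Figure D1:**
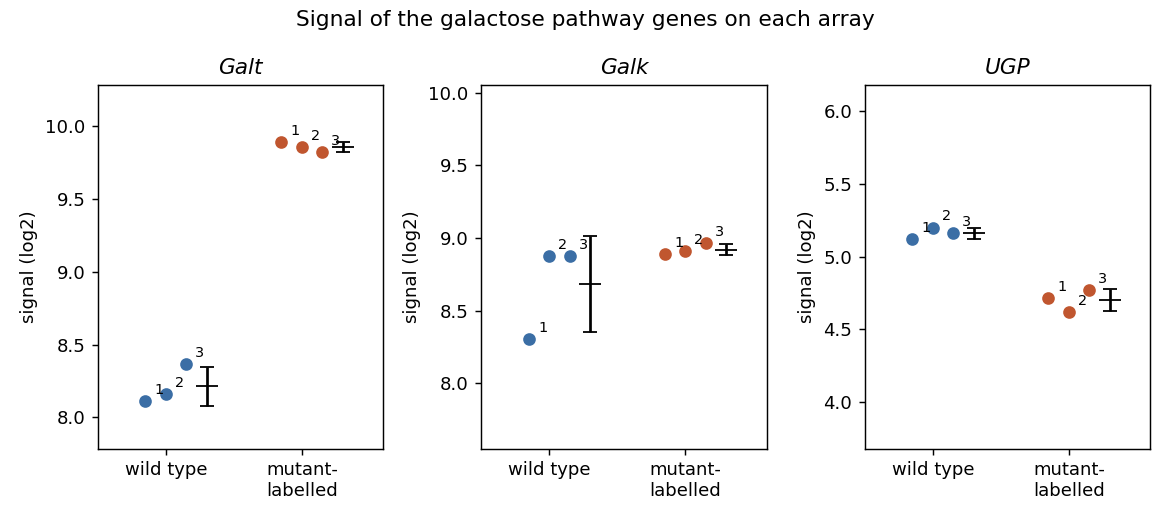
Log2 signal of Galt, Galk and UGP on each array (points, numbered by replicate) with the group mean and SD beside them; the panels span equal widths on the log2 scale. Galt lies between 8.11 and 8.36 in wild type and between 9.82 and 9.89 under the mutant label, Galk is low on wild type replicate 1 alone, and UGP is lower on all 3 mutant-labelled arrays.

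Galk, the kinase that acts just before Galt, was nearly level on 5 arrays and low on wild type replicate 1. Its signal was 8.30, 8.87 and 8.88 on wild type replicates 1, 2 and 3. On the mutant-labelled replicates it was 8.89, 8.91 and 8.96. Wild type replicate 1 stood 0.57 below the nearest other array, while wild type replicates 2 and 3 differed by 0.0018 from each other and lay 0.012 below the lowest mutant-labelled array. The means were 8.68 ± 0.33 and 8.92 ± 0.04 (SD, n = 3), with a difference of 0.24 (SE 0.16) that is smaller than the wild type SD. Without wild type replicate 1 the difference was 0.045, and without any other single array it was 0.21 to 0.33, so its size rests on that array; with array weights it was 0.13. Among all genes, 35 (0.292%) lay at least 0.5 below every other array on wild type replicate 1. The part that the state of that array plays in the Galk difference was not tested. The Galk probe set also has the suffix _s, so its probes may match transcripts of other genes as well. RefSeq lists 4 transcripts of Galk itself. In the order of all genes 25.8% were brighter than Galk.

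UGP, which makes UDP-glucose, was lower under the mutant label on a dim probe set. Its signal was 5.12, 5.20 and 5.16 on wild type replicates 1, 2 and 3. It was 4.72, 4.62 and 4.77 on the mutant-labelled replicates. The groups did not overlap, with 0.35 between their nearest arrays and spans of 0.08 (wild type) and 0.15 (mutant-labelled) within them. The means were 5.16 ± 0.04 and 4.70 ± 0.08 (SD, n = 3), a difference of -0.46 (SE 0.07). With single arrays left out it ranged from -0.49 to -0.42, and it was -0.48 without wild type replicate 1. The lower quartiles of the arrays were 5.11 to 5.24, so the wild type values sat at the lower quartile, the mutant-labelled values lay below it, and 88.6% of genes were brighter. No detection calls came with the values, so it is not known whether the mutant-labelled signals lie above background, and signals this dim compress a fold. RefSeq lists 4 UGP transcripts, and the probe set has the suffix _a, marking probes shared by transcripts of a gene; UGP transcripts that these probes do not match are not measured here.

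The 3 genes therefore showed 3 patterns across the same arrays. Galt was higher on every mutant-labelled array, Galk was level on 5 arrays and low on 1, and UGP was lower on every mutant-labelled array. The groups did not overlap for any of the 3, as for 22.4% of all genes, and for Galk this rested on the gap of 0.012. Ranked by the size of the difference in either direction, 43 genes lay above Galt, 929 above UGP and 2422 above Galk. The signals of different probe sets are not comparable as amounts of RNA, so the 3 genes are not ordered by level.

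**Figure D2:**
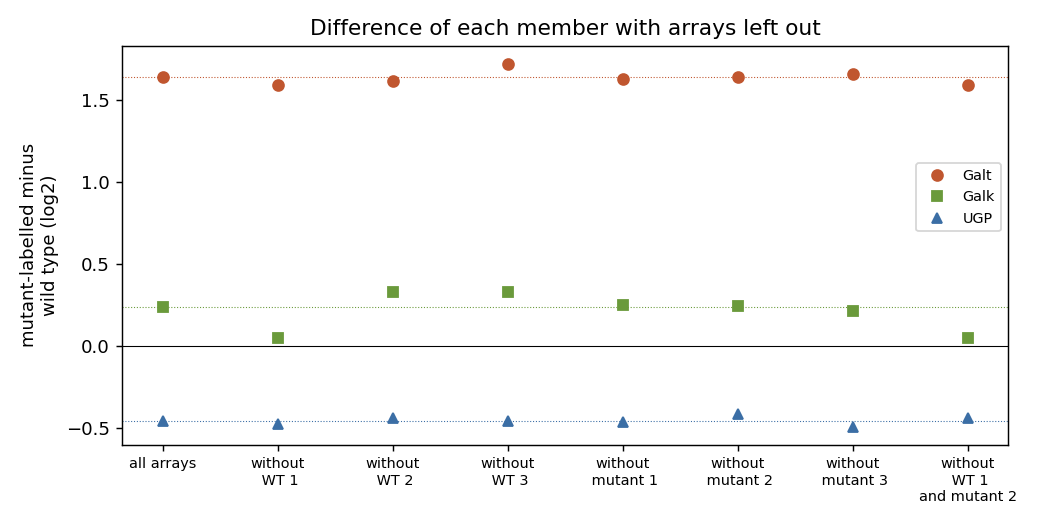
Mutant-labelled minus wild type difference (log2) of Galt, Galk and UGP with all arrays (dotted lines) and with the named arrays left out. Galt stays between 1.59 and 1.72 and UGP between -0.49 and -0.42, whereas Galk drops from 0.24 to 0.045 without wild type (WT) replicate 1.

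The genes whose profiles lay nearest to each member were found by the root mean square difference over the 6 arrays after each gene was centred on its own mean. The nearest gene to Galt was Pof itself, on its _s probe set, at 0.083, and it was the only gene within 0.1. Pof and Galt lie on different arms, 2R and 2L. Next came CG2772 at 0.10 and CG10553 at 0.11, with differences of 1.47 and 1.54, and AANATL2, related to arylalkylamine N-acetyltransferases, at 0.12 with a difference of 1.74. In all of these genes every mutant-labelled array lay above every wild type array, with spans within a group of up to 0.39 for AANATL2, and likeness of this kind says nothing of shared control.

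For Galk, 59 genes (0.492%) lay within 0.1, and the nearest were Cubn (0.037), CG10116 (0.040), Cdk5 (0.044) and CG15347 (0.057). Cubn, the fly relative of the cubilin endocytic receptor, read 6.71 on wild type replicate 1 and 7.27 to 7.34 on the other arrays. All 4 of these genes, like Galk, were low on wild type replicate 1 and nearly level elsewhere. For UGP, 99 genes (0.826%) lay within 0.1, the nearest being Srg2 (0.036), drongo (0.041), the kinase gene Lk6 (0.043) and ref(2)P (0.056), which encodes the fly p62 autophagy adaptor. Their differences ran from -0.52 for Lk6 to -0.38 for ref(2)P. drongo, Lk6 and ref(2)P were measured on bright probe sets, with wild type means of 10.1, 11.9 and 10.7. They were picked for their likeness to UGP, so their drops say nothing of how dimness affects the UGP value.

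**Figure D3:**
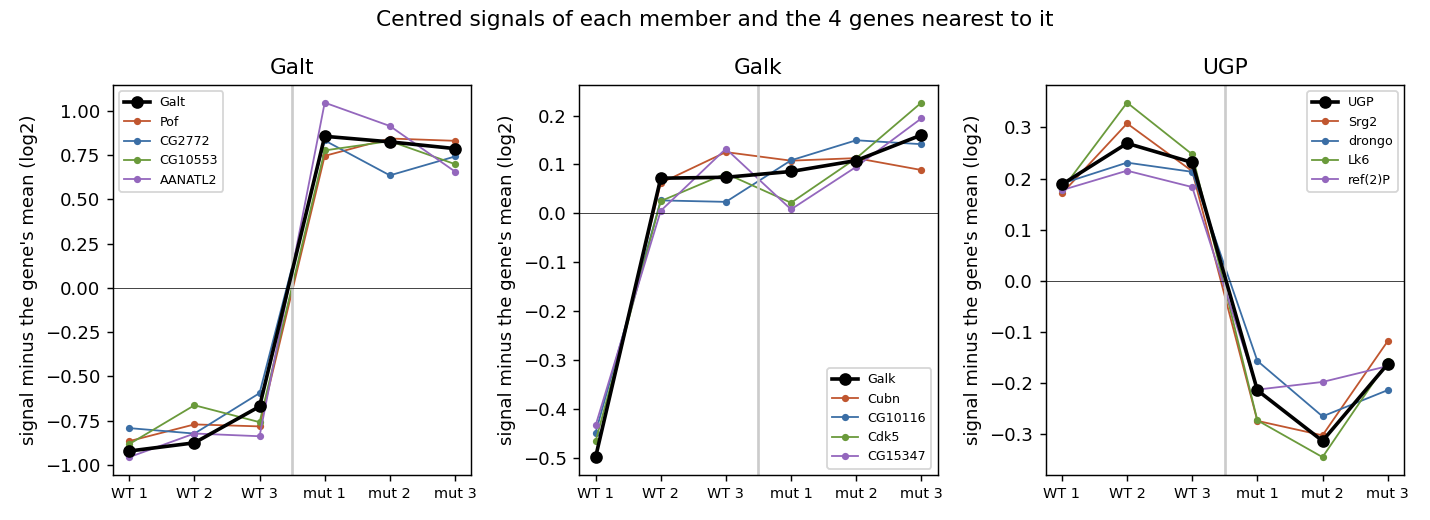
Log2 signal minus the gene's own mean on each array (WT, wild type; mut, mutant-labelled) for Galt, Galk and UGP (black) and the 4 genes nearest to each in profile (colours); lines join arrays only to guide the eye, and the vertical scales differ. The Galt panel shows a single step of 1.64 between the groups, the Galk panel a low value on wild type replicate 1, and the UGP panel a drop of 0.46.

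No other measured gene of the pathway passed the test. Of 6 measured genes in this list, 0 passed a limma adjusted p of 0.05, and the median difference was 0.04 against 0.02 over all genes. An unadjusted p under 0.05, which 16.8% of all genes reached, was found for 1 gene of the list, which was higher. Over all genes 490 passed (4.09%), 318 of them higher (2.65%) and 172 lower (1.44%). That number fell to between 201 and 300 when any array except wild type replicate 1 was left out, and it was 536 (4.47%) without that array. Pgm1, the phosphoglucomutase that links glucose-1-phosphate to glycolysis, read 12.2, 12.1 and 11.9 in wild type and 12.1, 11.9 and 12.2 under the mutant label, so the groups overlapped. Its difference was 0.02 (SE 0.10), and it turned to -0.04 when replicate 3 of the wild type was left out and to -0.05 when replicate 3 of the mutant label was. The other 5 genes are named by number and were listed as relatives of aldose 1-epimerase (mutarotase), the enzyme that presents galactose to the kinase. Among them CG10467 had a difference of 0.18 (SE 0.07, limma adjusted p = 0.273), with groups that did not overlap. CG32444 differed by 0.36 (SE 0.18, limma adjusted p = 0.465) and, like Galk, was lowest on wild type replicate 1, 0.45 below the nearest other array; its difference was 0.17 without that array and 0.14 with array weights.

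In a list of UDP-glucose users and glycogen genes, 7 of 9 measured genes gave no call. The remaining genes were 1 that rose and 1 that fell, against 4.09% called among all genes, and the median difference was -0.02. These counts include kkv, a chitin synthase gene, and gny, a glucosyltransferase gene, whose enzymes do not use UDP-glucose directly. AGBE, the glycogen branching enzyme, which acts on the chain rather than on UDP-glucose, was 9.50, 9.54 and 9.54 in wild type and 10.04, 10.20 and 10.12 under the mutant label. It rose by 0.60 (SE 0.07, limma adjusted p = 5.95e-03), a call kept without each single array (adjusted p 0.0108 to 0.0405). Tps1, which makes the blood sugar trehalose from UDP-glucose and glucose-6-phosphate, was 10.9, 10.7 and 10.6 in wild type and 10.2, 10.2 and 10.1 under the mutant label. It fell by 0.54 (SE 0.10, limma adjusted p = 0.0295), a call lost without any array other than wild type replicate 1 (adjusted p 0.0679 to 0.111) and after cyclic loess (0.0582). Glys, glycogen synthase, differed by 0.10 (SE 0.06, limma adjusted p = 0.606), and wol, a dolichol-phosphate glucosyltransferase, by -0.27 (SE 0.08, limma adjusted p = 0.16, or 0.0341 with array weights).

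Among genes that make or carry other nucleotide sugars, 1 of 9 rose and 0 fell, against 4.09% called among all genes. The median difference was 0.19, against 0.02 over all genes. Gfat2, of the first step toward UDP-N-acetylglucosamine, was 9.69 to 9.80 in wild type and 10.05 to 10.26 under the mutant label. It rose by 0.39 (SE 0.08, limma adjusted p = 0.0479), and that call was lost when any single array was left out (adjusted p 0.0635 to 0.183), with the replicate block, and with trended robust variances (0.0594 in both). sgl, the UDP-glucose dehydrogenase, had non-overlapping groups and a difference of 0.57 (SE 0.12, limma adjusted p = 0.0552). It passed under several alternatives (0.0203 to 0.0474), but in none of the fits with a single array left out (adjusted p 0.0519 to 0.174). Csas, which makes CMP-sialic acid and thus fits this list only loosely, differed by 0.49 (SE 0.14, limma adjusted p = 0.17). Gnpnat, also of the route to UDP-N-acetylglucosamine, differed by 0.29 (SE 0.12, limma adjusted p = 0.365), or by 0.43 without wild type replicate 1 (0.0379). That value is from a probe set with the suffix _a. On its brightest probe set without a suffix Gnpnat differed by 0.17 (limma adjusted p = 0.639), and the mean over its 3 probe sets by 0.22 (limma adjusted p = 0.414). Ugalt, named for UDP-galactose transport, differed by 0.01 (SE 0.09).

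Genes listed for attaching or releasing galactose gave no call, where 4.09% of all genes were called and 16.8% had an unadjusted p under 0.05. Of 7 galactosyltransferase genes and relatives 0 passed limma, and the median difference was -0.06. These counts include beta4GalNAcTA and beta4GalNAcTB, which are named for N-acetylgalactosamine rather than galactose. Without adjustment 1 gene had p under 0.05 and it was lower, namely C1GalTA, which starts core 1 O-glycans (-0.32, SE 0.12, limma adjusted p = 0.279). Of 4 galactosidase genes 0 passed, and 1 had an unadjusted p under 0.05. That gene, the beta-galactosidase relative Ect3, differed by -0.43 (SE 0.15, limma adjusted p = 0.232), with 6.85 on wild type replicate 1, 6.26 and 6.39 on the other wild type arrays and 6.05 to 6.08 under the mutant label, and its difference was -0.26 without wild type replicate 1.

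Sugar uptake, hexose phosphate and sugar sensing genes also held 0 calls by limma, where 4.09% of all genes were called. An unadjusted p under 0.05 was reached by 16.8% of all genes, and 1253 of 11982 reached it and were higher. Of 8 sugar transporter genes 4 had an unadjusted p under 0.05, all of them higher, and the median difference was 0.21. They were sut2 (0.37, SE 0.09, limma adjusted p = 0.0809), Glut1 (0.33, SE 0.08, limma adjusted p = 0.0753), sut1 (0.28, SE 0.08, limma adjusted p = 0.142) and Tret1-2 (0.22, SE 0.07, limma adjusted p = 0.183). Glut1 passed after cyclic loess (0.0456), but on its brightest probe set without a suffix the difference was -0.04. The mean over the 3 Glut1 probe sets differed by 0.22 (limma adjusted p = 0.261). Of 10 hexose phosphate genes 1 had an unadjusted p under 0.05, Pfk, phosphofructokinase (0.30, SE 0.07, limma adjusted p = 0.0967). None of the 5 sugar sensing genes (0 of 5) reached that level. Mondo, the sugar-sensing transcription factor, differed by 0.19 and its target cbt by -0.22 (limma adjusted p = 0.458 and 0.408); Mondo gave 0.12 without wild type replicate 1 and 0.13 without mutant-labelled replicate 2, and cbt -0.14 without the latter.

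**Figure D4:**
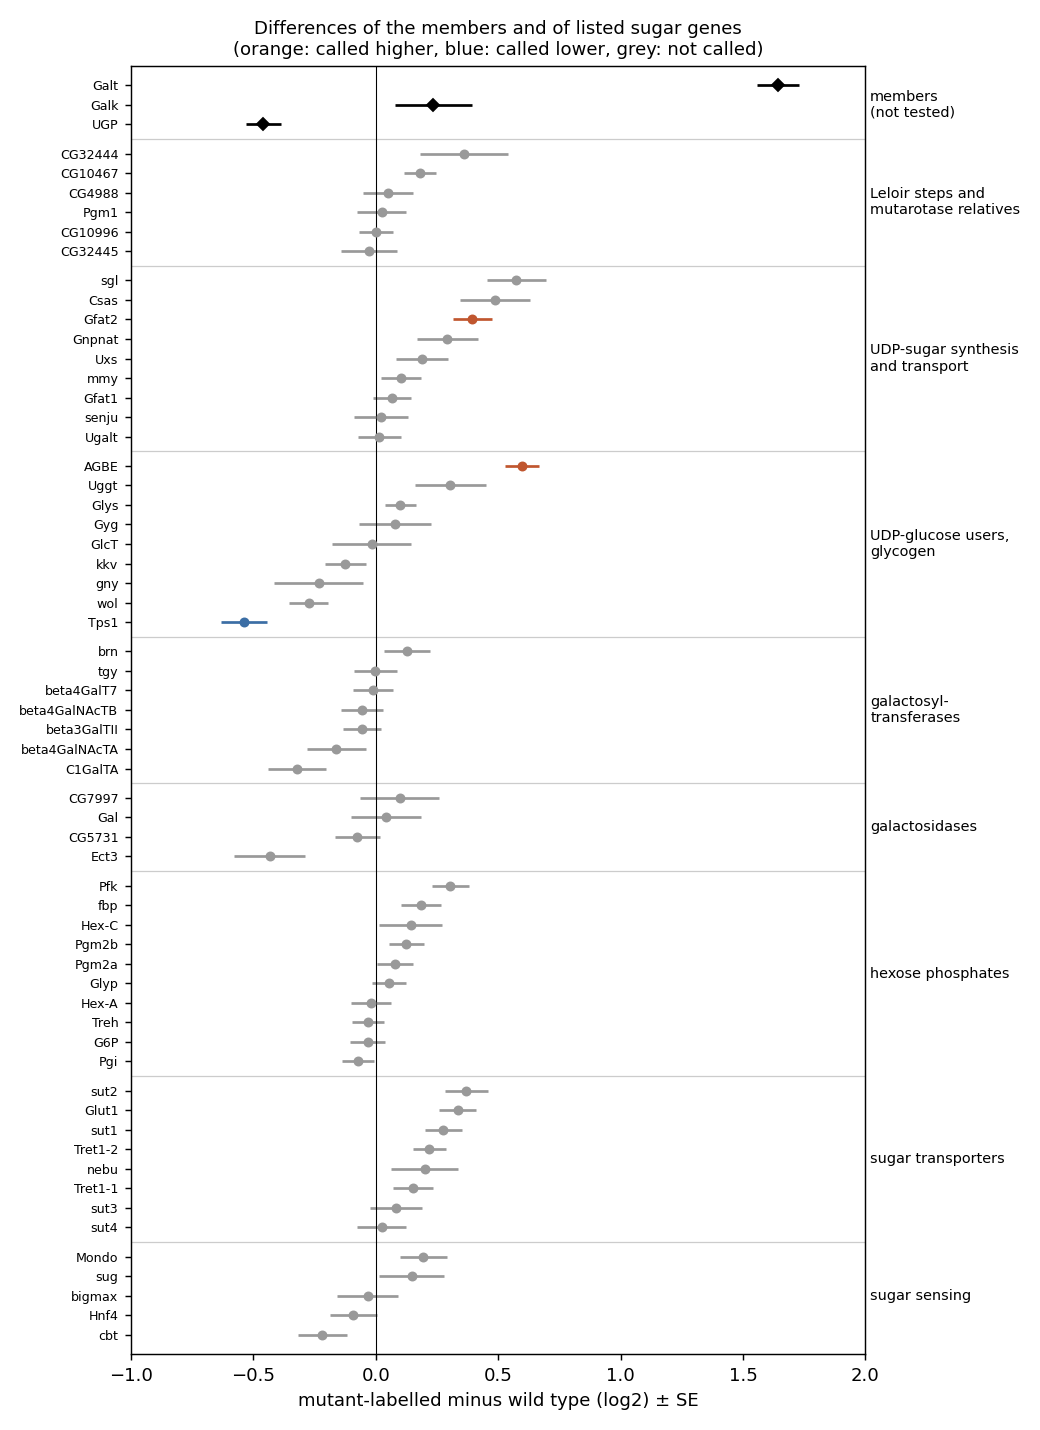
Mutant-labelled minus wild type difference (log2, points) with its SE (bars) for Galt, Galk and UGP (black, not tested) and for 58 measured genes in 8 lists of sugar metabolism. Galt at 1.64 lies beyond the range of the listed genes (-0.54 to 0.60), of which AGBE and Gfat2 were called higher and Tps1 lower.

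Over the 8 lists, 2 of 58 measured genes rose and 1 fell, against 4.09% called among all genes. The groups did not overlap for 18 of the 58, against 22.4% of all genes. The highest difference in the lists was the 0.60 of AGBE, below the 1.64 of Galt. Wild type replicate 1 was the lowest of the 6 arrays for 20 of the 58 genes, against 28.2% of all genes. It was also the lowest array for Galt, by 0.046, and for Galk, by 0.57.

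Among 12 neighbours, the closest 2 measured genes to the left and right of each member, limma made 0 calls, where 4.09% of all genes were called, so the count is near that share. Beside Galt, the serine protease inhibitor gene Spn27A follows with no gene listed between and differed by -0.28 (SE 0.11, limma adjusted p = 0.307, unadjusted p = 0.0341), and CG13771 on the other side by 0.17 (limma adjusted p = 0.644), or by 0.040 without mutant-labelled replicate 1. Beside Galk, CG13314 differed by -0.32 (limma adjusted p = 0.657) and was highest on wild type replicate 1, where Galk was lowest, so that its difference was -0.038 without that array. Near UGP, PGRP-LA, of the peptidoglycan recognition family, read 7.31 to 7.49 in wild type and 6.62 to 7.10 under the mutant label. Its difference was -0.53 (SE 0.13, limma adjusted p = 0.0944), and it passed with array weights (0.0414) or the replicate block (0.0385). CG32040, adjacent to UGP on the other side, gave -0.18 (limma adjusted p = 0.36, unadjusted p = 0.0481). Spn27A, PGRP-LA and CG32040 were the neighbours with an unadjusted p under 0.05, which 16.8% of all genes reached, and all 3 had negative differences.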

How the data were processed

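The deposited values are log2 signals of probe sets, which the authors computed with RMA according to the submitters' processing notes, whose version and options are not stated there. RMA as usually run normalizes arrays to a common distribution, which would remove a shift of most genes and compresses dim signals. Of 18952 probe sets, 183 controls were left out, and 18769 entered one limma fit (version 3.58.1 under R 4.3.3; lmFit, then eBayes) with group as the only term and Benjamini-Hochberg adjustment over all of them. An adjusted p under 0.05 is a call. Genes were named from the platform annotation, with symbols and neighbours from RefSeq's gene table for assembly Release 6 plus ISO1 MT. Of the 18769 probe sets, 13647 had 1 gene symbol, 402 several and 4720 none, and 13544 of the first were matched in that table by gene ID. The brightest single-gene probe set (highest mean) stands for a gene. The 3 genes, the lists (written by hand from general knowledge) and the tests were chosen with earlier results of these data known.

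Named genes were the 3 members, called list genes or up to 4 per list with the smallest p, the 4 nearest profiles and 2 neighbours per side of each member, and Pof; some are left out for length, and sgl, Csas, Gnpnat, Ugalt, Glys and wol, uncalled genes of lists with a call, were named after their values were seen. Nothing in the labels says how the replicates were separated, so p-values measure the spread between these arrays. Alternatives were keeping the upper 60% of probe sets by mean, quantile normalization applied once more, cyclic loess, trended robust variances, array weights, a block for the replicate number, each array left out, wild type replicate 1 and mutant-labelled replicate 2 left out together, the mean over a gene's probe sets, probe sets without suffix only, and an adjusted p under 0.10. The number of arrays limits the precision.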

Additional observations from a re-analysis of the deposited data

How the results depend on the processing

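The differences of Galt (1.59 to 1.72), Galk (0.045 to 0.33) and UGP (-0.49 to -0.42) kept their sign under every alternative that gave a value; Galk fell from 0.24 to 0.045 without wild type replicate 1 and was 0.13 with array weights. Galk and UGP have no value when probe sets with a suffix are left out, nor UGP when the dimmest probe sets are. The number of called genes was 840 with array weights, 201 to 536 with single arrays left out and 712 without wild type replicate 1 and Pof mutant replicate 2. The nucleotide sugar list held 2 calls with dim probe sets removed, after quantile normalization, cyclic loess, array weights or an adjusted p under 0.10, and 0 to 1 with single arrays left out. The list of UDP-glucose users held 1 call after cyclic loess and 1 to 2 with single arrays left out. Sugar transporters held 1 call after cyclic loess and 2 at an adjusted p under 0.10, hexose phosphate genes 1 at that threshold, and galactosyltransferases 1 without that pair of arrays. Pgm1 turned to -0.038 without replicate 3 of the wild type and -0.051 without replicate 3 of the mutant label, against up to 0.15 with other arrays left out, and Glut1 to -0.042 without suffixed probe sets; the cause was not tested. Same-numbered arrays of the groups had deviations from the group mean correlated at r = 0.18, 0.13 and 0.025. Wild type replicates 1 and 2 correlated best with their own number, and replicate 3 with mutant-labelled replicate 2 (r = 0.15). These values cannot decide whether the numbers pair the arrays, since deviations from a mean of 3 arrays depend on each other. With the replicate block 476 genes were called. The neighbours held 1 call with that block, with array weights and at an adjusted p under 0.10. Pof kept its call under all alternatives that measured it (adjusted p 1.69e-05 to 0.00188). Signals near the lower quartile, as for UGP, limit what a fold can show.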
